A study of Danio rerio with 18 samples.

Results

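In the adult zebrafish heart, typical enhancers at 10 months and at 1 year of age numbered 13053 and 13362, together 26415 of the 66306 regions deposited for all organs. They were chosen by list alone: every region of the typical-enhancer list of each heart was a member, and the super-enhancer lists of the same hearts, with 749 and 850 regions, served as context. Regions were called by acetylation of histone H3 at lysine 27 (H3K27ac), measured by chromatin immunoprecipitation and sequencing. Both groups were male wild type zebrafish of the AB strain with no treatment in the labels, and each replicate pooled 20 whole hearts. The 10-month heart had 1 immunoprecipitated library, from chromatin sheared to 175 bp, and the 1-year heart had 2, from chromatin sheared to 200 bp, each with a matching input library. Age, fragment size and number of libraries thus changed together, and their effects cannot be told apart. A pool of whole hearts holds muscle, valve, vessel, epicardial and blood cells, and in such bulk chromatin fewer cells of a type and less acetylation per cell cannot be told apart.

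H3K27ac is laid down by acetyltransferases such as p300 and CBP on nucleosomes beside active enhancers and promoters. An enhancer is a stretch of DNA where transcription factors bind and raise transcription of a gene that may lie far away, and many enhancers are active in only some organs. Neighbouring enhancers within a set distance are commonly joined into one longer region, the joined regions are ranked by signal, those above a threshold are called super-enhancers, and the rest are called typical enhancers. A region name in these lists gives the number of loci joined into it. Because H3K27ac also marks active promoters, a region in these lists may hold a promoter. No annotation of the build of the lists, Zv9, was used here, so regions are given by position without gene names, and the tissue label was not checked against heart marker genes.

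The 1-year heart list was only slightly larger in regions but much larger in base pairs. Typical enhancers covered 93.6 Mb at 10 months and 139 Mb at 1 year. The median region measured 2.80 kb at 10 months and 3.80 kb at 1 year, and the upper quartile 9.80 kb and 13.8 kb. A single locus formed 64.4% of the regions at 10 months and 58.5% at 1 year. The loci inside typical enhancers numbered 22133 at 10 months and 28212 at 1 year. Each age had 1 list of each kind and no value per replicate, so the ages could not be tested against each other. The intervals below are exact Clopper-Pearson 95% intervals over regions, which cover counting error only, and the sequencing depth behind the lists is unknown.

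Most typical enhancers of the younger heart were found again in the older heart, and the older heart had many regions of its own. A region counted as matched when it overlapped an enhancer of the other age by at least 50% of the shorter of the pair. Super-enhancers were consulted only for regions without a typical match, and 6 typical enhancers at 10 months and 25 at 1 year matched both kinds. By this rule 7520 regions at 10 months, 57.6% of the list, matched exactly 1 typical enhancer at 1 year that matched no other typical enhancer. A further 1643 regions, 12.6%, were joined with a neighbour into 1 longer region at 1 year, and 111 regions, 0.850%, were split into several. Another 1137 regions, 8.71%, matched only a super-enhancer at 1 year. The remaining 2642 regions had no match at 1 year and are called lost, which is 20.2% of the list (19.6% to 20.9%). From the side of the older heart, 4412 regions had no match at 10 months and are called gained, which is 33% of the list (32.2% to 33.8%). Lost and gained describe presence in the lists only.

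**Figure D1:**
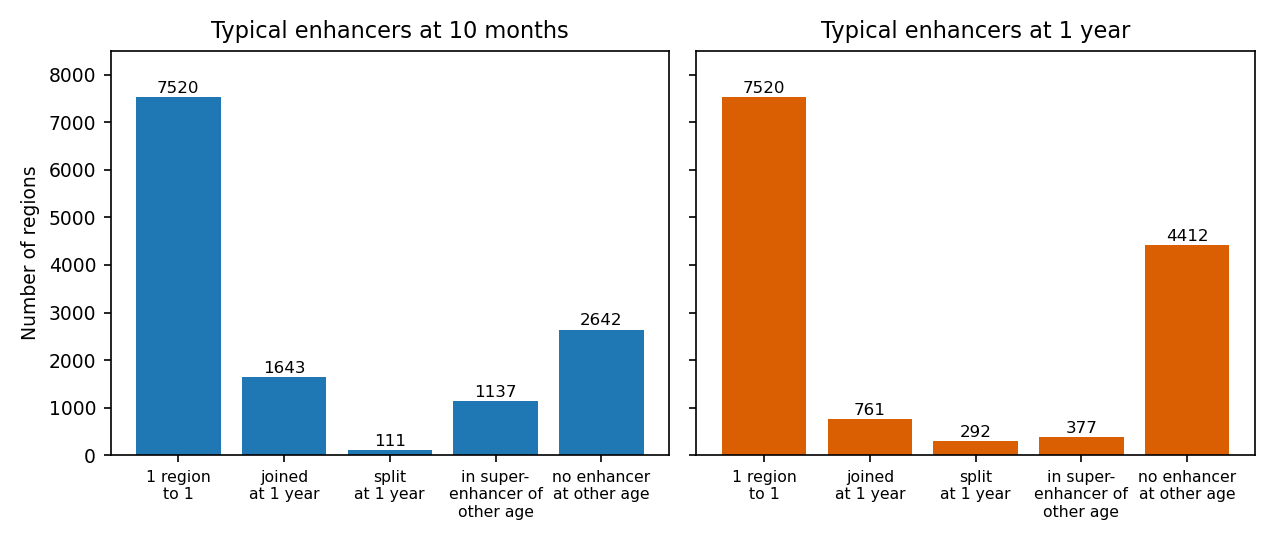
Number of heart typical enhancers at 10 months (left) and at 1 year (right) by how they matched the enhancers of the other age; each bar is a count of regions. The 7520 regions matched 1 to 1 form the tallest bar at both ages, and the 4412 gained regions outnumber the 2642 lost regions.

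Lost and gained regions were short, so they made up less of the base pairs than of the regions. Lost regions held 9.39% of the base pairs of the 10-month list and gained regions 13.2% of those of the 1-year list. The median length was 2.20 kb in both classes, and a single locus made up 87.7% of lost and 79.9% of gained regions. Counted by base pairs and with no rule on matching, 79.8% of the 10-month typical-enhancer DNA lay within some enhancer of the 1-year heart. In the other direction the share was 45.3%. The 10-month DNA was therefore mostly contained in the 1-year lists, while most of the 1-year DNA lay outside the 10-month lists.

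The share of regions without a match was lower among long regions and among those with several loci, and long regions can meet a partner more easily under an overlap rule. At 10 months the lost share was 22.6% of regions under 1 kb, 27.1% at 1 to 2 kb and 32.0% at 2 to 4 kb. It was 11.5% at 4 to 10 kb, 9.01% at 10 to 20 kb and 1.86% above 20 kb. The 10-month share thus peaked between 2 and 4 kb and not among the shortest regions. At 1 year the gained share was highest under 1 kb, 56.7%, and lower in each longer class, down to 5.37% above 20 kb. By loci, the lost share was 27.5% for 1 locus, 11.2% for 2 and 3.31% for 3, and the gained shares were 45.1%, 25.7% and 14.5%. The gained share exceeded the lost share in all 6 length classes, and it did so for 1, 2 and 3 loci and for 4 or 5. For 6 or more loci the shares were 1.32% gained and 1.02% lost, with overlapping intervals. The lists searched were of unequal size. Typical and super-enhancers covered 139 and 73.6 Mb at 1 year, against 93.6 and 39.0 Mb at 10 months. More DNA to match favours a lower lost share, and how far this sets the order was not tested.

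**Figure D2:**
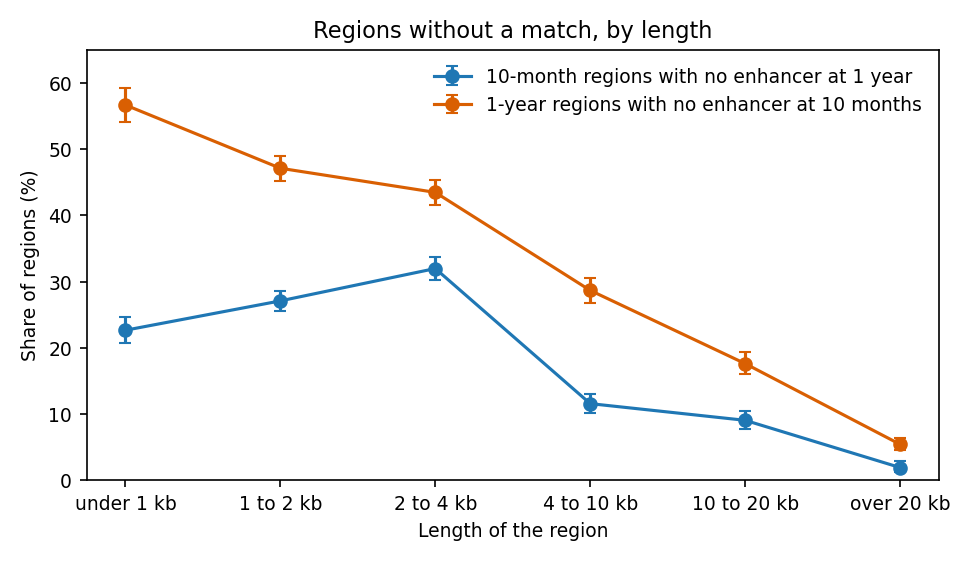
Share of typical enhancers with no enhancer at the other age (percent of regions) by region length in kb, for the 10-month list (blue) and the 1-year list (orange); bars are exact 95% intervals. The 1-year share runs from 56.7% to 5.37% and lies above the 10-month share in each class, while the 10-month share is highest, 32.0%, at 2 to 4 kb.

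Among regions of equal length, those with the weakest signal were the ones most often missing at the other age. The comparison took single-locus regions of each exact length and divided them into 5 groups by signal within that length. At 1 year the deposited signal was used. From the weakest group to the strongest, the gained share was 80.5% of 1244 regions, 70.0% of 1247, 54.4% of 1253, 30.5% of 1249 and 5.48% of 1258. The 1-year signal per bp had a lower median in gained than in other regions at each of the 22 lengths compared, from 399 to 4599 bp. Over the wider class of 2 to 4 kb, with any number of loci, the median signal was 0.428 per bp in gained regions and 0.552 per bp in those matched 1 to 1. That last comparison was not made at equal length.

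The 10-month list needed a different measure of strength. There, 74.2% of typical enhancers carried a signal that was not their own length times a value per bp of 4 decimals. Names were also shared, with 1677 names for 13053 regions, so the signal of a given region is uncertain. The last number of the region name, whose meaning is not given in the sources used here, was used in its place. Over 2054 single-locus regions whose signal fitted their length it ran almost in step with that signal (Spearman's rho 0.995, a description of points from 1 list). A signal carried over from another region of equal length would also fit, so shared names can raise this rho. The number also followed length (rho 0.844 over 8215 regions), hence the comparison within equal length. The rho of 0.995 was taken over all lengths and does not show how well the number ranks regions of equal length. From the lowest to the highest group of this number, the lost share was 56.7% of 1561 regions, 44.3% of 1543, 26.5% of 1534, 11.3% of 1533 and 3.10% of 1548. The median number was lower in lost than in other regions at each of 19 lengths. By these measures both ages showed the same order, with few regions of the highest group missing. At 10 months this rests on the name number as a stand-in for strength.

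**Figure D3:**
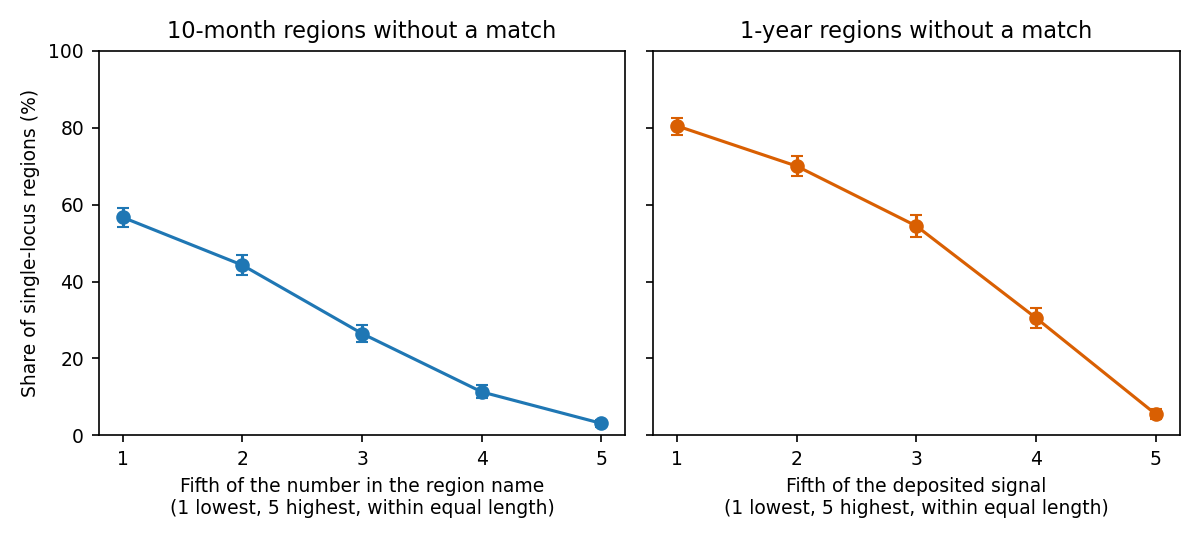
Share of single-locus typical enhancers with no enhancer at the other age (percent), in 5 groups of rising strength within equal length; strength is the number in the region name at 10 months (left) and the deposited signal at 1 year (right), and bars are exact 95% intervals. The share is lower in each next group, from 56.7% to 3.10% at 10 months and from 80.5% to 5.48% at 1 year.

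Strong single-locus regions missing at the other age were few enough to count. The strongest group held 48 lost regions on 21 chromosomes and 69 gained regions on 25. Of the 48 lost regions, 43 had no overlap at all with an enhancer of the 1-year heart, and 36 were present in brain, testis or intestine (75%). The whole 10-month list, of all strengths, had 77.6%. Of the 1548 regions of the same strongest group, 91.1% were in the intestine list, so their share in any of the organs was at least that high. Of the 69 gained regions, 59 had no overlap with an enhancer of the 10-month heart, and 62 were present in another organ (89.9%). This was above the 78.5% of the whole 1-year list but not above the strongest group itself, where 92.5% of 1258 regions were in the intestine list. Without overlap and in no other organ there remained 12 lost and 7 gained regions. The following were picked after their values were seen, as the furthest above the median of their length. The lost region on chromosome 20 from 55769401 to 55773399, 3.999 kb, had a name number of 779, which is 3.87 times the median of its length, and was also listed in the testis. The lost region on chromosome 25 from 26371601 to 26374799, 3.20 kb, had 2.07 times the median and was in no other organ. The gained region on chromosome 20 from 4038801 to 4039999, 1.20 kb, had 2.62 times the median signal of its length and was also listed in the brain. The gained region on chromosome 21 from 42708001 to 42708599, 0.599 kb, had 1.89 times the median and was also listed in the testis.

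Most regions matched 1 to 1 between the hearts were also listed in another organ, and the shares were lower for lost and gained regions, with intervals apart. Of all typical enhancers at 10 months, 46.9% were found in the brain, 33.6% in the testis, 63.4% in the intestine and 77.6% in any of these. The lists of the 1-year heart gave 46.7%, 33%, 65.1% and 78.5%. Of the pairs matched 1 to 1, 83.6% of the 10-month and 85.7% of the 1-year regions were in another organ. Among lost regions the share was 49.7% (47.7% to 51.6%), and among gained regions 61.4% (59.9% to 62.8%). The other 1330 lost and 1704 gained regions were in no list but their own.

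Lost and gained regions differed from each other most in the intestine. The intestine list held 43.3% of gained regions (41.9% to 44.8%) and 24.7% of lost regions (23.0% to 26.4%). This contrast depended on how matches were counted: with super-enhancers ignored the shares were 46.6% of gained and 42.7% of lost regions. With an overlap of 50% of both regions they were 21.5% and 14.0%, but that rule also applied to presence in the intestine. The brain list held 27.2% of gained and 25.8% of lost regions, whose intervals overlap. The testis list held 13.1% of gained and 16.8% of lost regions. Found in the intestine but in neither brain nor testis were 1141 gained and 354 lost regions. The share of gained regions in the intestine was above that of lost regions on 25 of 25 chromosomes and in each length class, from 36.5% against 20.6% at 2 to 4 kb to 71.4% against 56.5% above 20 kb, where the intervals overlap. The intestine came from 1-year fish with 200 bp fragments, as did the 1-year heart, and brain and testis from 10-month fish with 175 bp fragments, as did the 10-month heart. What the lists share by organ and what they share by age and fragment size cannot be told apart.

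**Figure D4:**
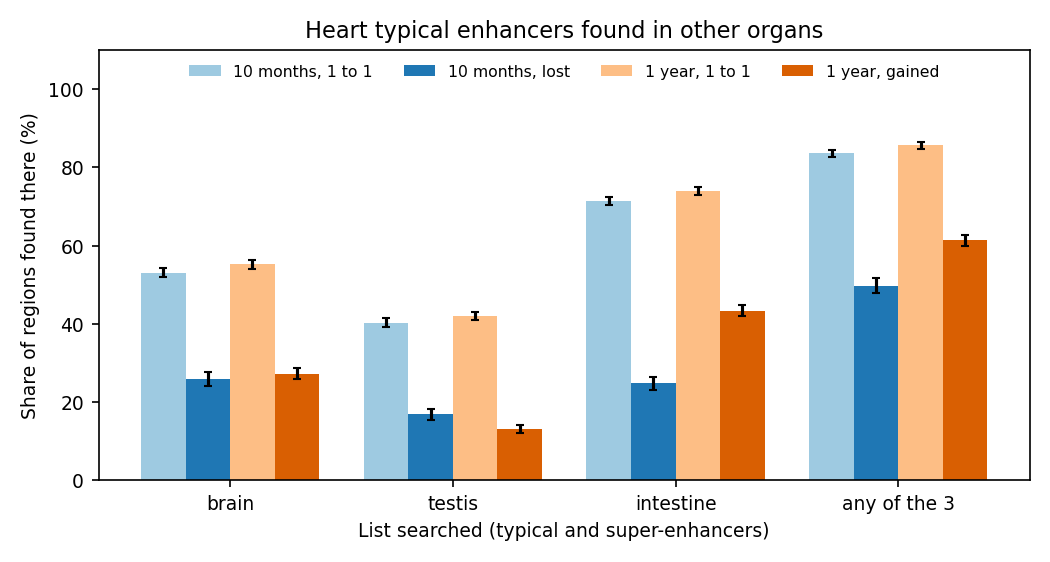
Share of heart typical enhancers found in the lists of brain, testis, intestine or any of these (percent), for regions matched 1 to 1 and for lost or gained regions at each age; bars are exact 95% intervals. The intestine separates gained regions (43.3%) from lost regions (24.7%), whereas in the brain both are near the same level (27.2% and 25.8%).

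Stronger regions were found in other organs in higher shares, and the shares of lost and matched regions were also set side by side at like strength. In the weakest group at 10 months, 19.5% of 885 lost and 45.6% of 676 matched regions were in the intestine, and in the strongest group 33.3% of 48 and 92.9% of 1500. For the brain the same shares were 21.7% and 26.9% in the weakest group, with overlapping intervals, and 39.6% and 78.3% in the strongest. For the testis they were 11.6% and 12.0% in the weakest group and 47.9% and 73.1% in the strongest. The testis intervals of lost and matched regions overlapped in every 10-month group but the strongest. At 1 year the weakest regions did not separate in the intestine: 29.6% of 1001 gained and 30.5% of 243 matched regions were found there, with overlapping intervals. For the brain the 1-year shares were 23.3% and 32.9% in the weakest group, with intervals apart, and 49.3% and 78.2% in the strongest. For the testis they were 11.7% and 16.9% in the weakest group, with overlapping intervals, and 23.2% and 72.7% in the strongest. In the strongest group at 1 year the intestine shares were 73.9% of 69 and 93.6% of 1189. The regions kept between ages and strongest for their length were therefore nearly all listed in the intestine as well.

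The pairs matched 1 to 1 were mostly longer at 1 year. The 1-year region was longer in 66.5% of the 7520 pairs and shorter in 25.2%, and the median ratio of lengths, 1 year to 10 months, was 1.26. Where at least 50% of both regions had to overlap, which bars large differences of length, the median ratio was 1.075. The ratio depended on joining. Where a region had 1 locus at both ages, 3238 pairs, the median ratio was 1.14, a median difference of 200 bp, which is the step of the grid on which region starts lie. Where both were joined from several loci, 2190 pairs, it was 1.16. A further 1535 pairs went from 1 locus to a joined region with a median ratio of 6.64, and 557 went the other way with a median ratio of 0.268. Large changes of length thus went with a change in the number of loci. A joined region also spans the gaps between its loci, so this relation follows in part from how regions are built.

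Some pairs kept the same borders on the 200 bp grid of the lists. Identical coordinates were found in 503 pairs, 6.69% of those matched 1 to 1, of which 394 had a single locus at 10 months, with a median length of 1.60 kb. The longest lay on chromosome 7 from 20786201 to 20822199, 36.0 kb, with 7 loci at 10 months and 6 at 1 year. The next lay on chromosome 2 from 53128801 to 53161799 and on chromosome 21 from 15764401 to 15796999. The intestine list held 74.2% of the identical pairs, near the 71.5% of all 10-month and 73.9% of all 1-year regions matched 1 to 1. The brain list held 59.6% of the identical pairs, against 53.0% and 55.2%.

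The 5 pairs with the most loci at 10 months were chosen for an extreme of the 10-month list, so their lengths at 1 year are a description and are not set against those of the other pairs. On chromosome 11 a region of 95.6 kb and 12 loci, from 31308401 to 31403999, matched a region of 36.6 kb and 4 loci. The region on chromosome 19 from 29509601 to 29583799 went from 11 to 13 loci and from 74.2 to 69.8 kb. The other 3, on chromosomes 12, 22 and 1, had 9 or 10 loci at 10 months and 6 or 7 at 1 year, with length ratios of 0.596, 0.634 and 0.724. The extremes of the ratio lay elsewhere. On chromosome 13 a region of 0.399 kb, from 36435801 to 36436199, lay at the end of a 1-year region of 55.8 kb and 8 loci, a ratio of 140. Ratios of 111 and 105 were found on chromosome 1, from 47778601 to 47779399, and on chromosome 7, from 34783401 to 34784199. At the other end, the 45.4 kb region on chromosome 9 from 56235001 to 56280399, with 8 loci, matched a single locus of 0.999 kb. The ratios of 0.0333 on chromosome 5, from 58356401 to 58368399, and of 0.0353 on chromosome 9, from 38949801 to 38983799, were the next lowest.

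Joining was common, and most joined regions had more loci than their parts. The 1643 joined regions lay in 761 regions of the 1-year heart, 665 of which held 2 of them. The parts measured 13.2 kb in sum at the median and the 1-year region 41.2 kb, and the median number of loci was 3 over the parts and 6 at 1 year. The 1-year region had more loci than its parts in 655 of 761 cases, 86.1%. The largest gap between parts had a median of 17.0 kb, above 12.6 kb, the joining distance read from the spacing of joined regions in these lists. Parts farther apart than that distance can lie in 1 region only if further or longer loci fill the gap. The higher number of loci thus follows in part from the joining itself. Of the 761 regions, 697 (91.6%) were found in the intestine and 533 (70.0%) in the brain, near the 87.5% and 67.6% of 1-year regions above 20 kb matched 1 to 1.

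The joins with the most parts show both forms. On chromosome 3 the 1-year region from 32905401 to 32962999, 57.6 kb with 7 loci, covered 7 regions of the 10-month heart that summed to 21.2 kb and also had 7 loci, with gaps of 2.001 to 7.80 kb. On chromosome 5, from 27380801 to 27423999, 7 regions summing to 20.2 kb with 7 loci became 1 region of 43.2 kb with 3 loci. Both sets of parts lay closer together than 12.6 kb and were listed separately at 10 months. The region on chromosome 11 from 22861201 to 23002599, 141 kb, covered 5 regions of 37.6 kb in sum, with 8 loci at 10 months and 23 at 1 year. The region on chromosome 2 from 41429201 to 41499799, 70.6 kb, covered 5 regions of 7.80 kb in sum, with 5 loci and then 12. The region on chromosome 6 from 31309201 to 31432799, 124 kb, covered 5 regions of 58.2 kb in sum, with 12 loci and then 16.

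Splitting was rare, and it took 2 forms of near equal number. The 111 split regions fell into 292 pieces, 78 of them into 2. In 55 of the 111 all gaps between pieces were at most 12.6 kb and all pieces carried names of unjoined regions, and in the other 56 all gaps exceeded that distance. Names of unjoined regions made up 5.79% of the 1-year list, 1.502% of the 10-month list and 62.3% of the pieces. The 5 splits with the most pieces all belonged to the first kind. The largest was on chromosome 9, where 34730401 to 34789599, 59.2 kb with 9 loci, became 8 pieces with gaps of 1.00 to 10.8 kb. A second lay nearby, from 34658401 to 34710999, and also became 8 pieces. The others lay on chromosome 23 (27705201 to 27738799, 6 pieces), chromosome 2 (23258601 to 23285599, 6 pieces) and chromosome 22 (15798201 to 15847799, 5 pieces). When neighbours within 12.6 kb were merged in each list before matching, 58 splits remained.

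Typical enhancers of the younger heart that matched only a super-enhancer of the older heart were long. The 1137 regions had a median of 11.8 kb and 2 loci, and 84.5% of them were in the intestine list, against 63.4% of the whole list. Of 10-month regions matched 1 to 1, the intestine list held 75.8% at 10 to 20 kb and 89.5% above 20 kb. The 1137 regions matched 557 of the 850 super-enhancers of the 1-year heart. Of these 557, 327 matched no super-enhancer at 10 months and 230 matched one. The same count is not given for all 850, so no base share stands beside it and it is not read as particular to the 557. The share of 10-month regions that matched only a super-enhancer was 3.72% under 1 kb and 29.3% above 20 kb. Chromosome 18 held the longest, 30143001 to 30267199, 124 kb with 14 loci, of which 120 kb, 96.5%, lay in a 1-year super-enhancer of 164 kb and 22 loci. The next were on chromosome 22 from 17940401 to 18032199, 91.8 kb against 86.4 kb, and on chromosome 11 from 20949601 to 21024999, 75.4 kb against 152 kb. The one on chromosome 22 overlapped its super-enhancer by 65.8 kb, 76.2% of the shorter region, and the one on chromosome 11 lay wholly inside. The super-enhancer with the most such regions, found after the counts were seen, lay on chromosome 5 from 26399801 to 26547999 and matched 14 of them, 80.0 kb in sum. Of the 10-month typical enhancers, 1457 had a deposited signal above that of the lowest super-enhancer of their age, and 666 of these had a signal that belonged to their length. The line between the classes is therefore uncertain at 10 months.

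The reverse case was smaller and of another make. Only 377 typical enhancers at 1 year, 2.82% of the list, matched nothing but a 10-month super-enhancer, and they matched 186 of 749. Names of unjoined regions made up 54.4% of them. The longest were on chromosome 22 from 22010201 to 22089399, chromosome 10 from 28717801 to 28796599 and chromosome 14 from 18845401 to 18923999, at 78.6 to 79.2 kb. Each of these contained the whole of its 10-month super-enhancer, whose lengths were 63.8, 74.2 and 54.2 kb. These 3 regions were thus longer at 1 year than at 10 months and were listed as typical. The deposited signal of the 10-month super-enhancer on chromosome 22 did not belong to its length, so its class at 10 months is uncertain.

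The longest lost and gained regions need their overlaps beside them. The 5 longest lost regions were on chromosome 12 (32937401 to 32980999, 43.6 kb), chromosome 21 (29510401 to 29543599, 33.2 kb), chromosome 18 (8088201 to 8120399, 32.2 kb, and 17261601 to 17291199, 29.6 kb) and chromosome 7 (30212401 to 30241999, 29.6 kb). All but the one on chromosome 21 still overlapped a 1-year enhancer, by 37.2% to 43.1% of the shorter region. The 3 longest gained regions had no overlap at 10 months. They were on chromosome 1 (53703201 to 53769599, 66.4 kb with 10 loci), chromosome 16 (7363401 to 7407999, 44.6 kb with 7 loci) and chromosome 14 (349801 to 391799, 42.0 kb with 5 loci), and all were in the intestine list. The other two, on chromosome 19 (22845801 to 22885799) and chromosome 22 (32458601 to 32496999), overlapped a 10-month enhancer by 23.2% and 45.8%. Of gained regions of at least 2000 bp, the highest signals per bp were 1.39 on chromosome 20 (22139201 to 22142599), 1.21 on chromosome 3 (19950601 to 19958799) and 1.04 on chromosome 13 (25710001 to 25716999). The regions on chromosomes 20 and 3 overlapped a 10-month enhancer by 47.0% and 48.8%, and the one on chromosome 13 had no overlap and was in no other organ.

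Most lost and gained regions were not near misses of the overlap rule. Of the lost regions, 272 (10.3%) overlapped a 1-year enhancer by less than 50%, as did 254 (5.76%) of the gained. Just below the line, 104 lost and 104 gained regions overlapped by 40% to 50%, and just above it 119 and 123 matched regions overlapped by 50% to 60%. The median distance to the nearest enhancer of the other age was 21.0 kb for lost and 24.8 kb for gained regions. Farther than 12.6 kb from any such enhancer lay 66.7% of lost and 77.9% of gained regions. When at least 50% of both regions had to overlap, which long partners of short regions cannot meet, the lost share was 66.4%, the gained share 67.0% and the pairs matched 1 to 1 were 4291.

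Lost and gained regions were spread over the whole genome. The lost share ran from 16.1% on chromosome 23 to 24.0% on chromosome 19, and the gained share from 28.0% on chromosome 22 to 37.2% on chromosome 12. The gained share was above the lost share on 25 of 25 chromosomes. The 1-year lists held more DNA to match, so the chromosomes are not separate support for this order. The interval of a chromosome left out the share of the whole list on 2 chromosomes for lost and 3 for gained regions. There were more typical enhancers at 1 year than at 10 months on 17 chromosomes and fewer on 8.

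**Figure D5:**
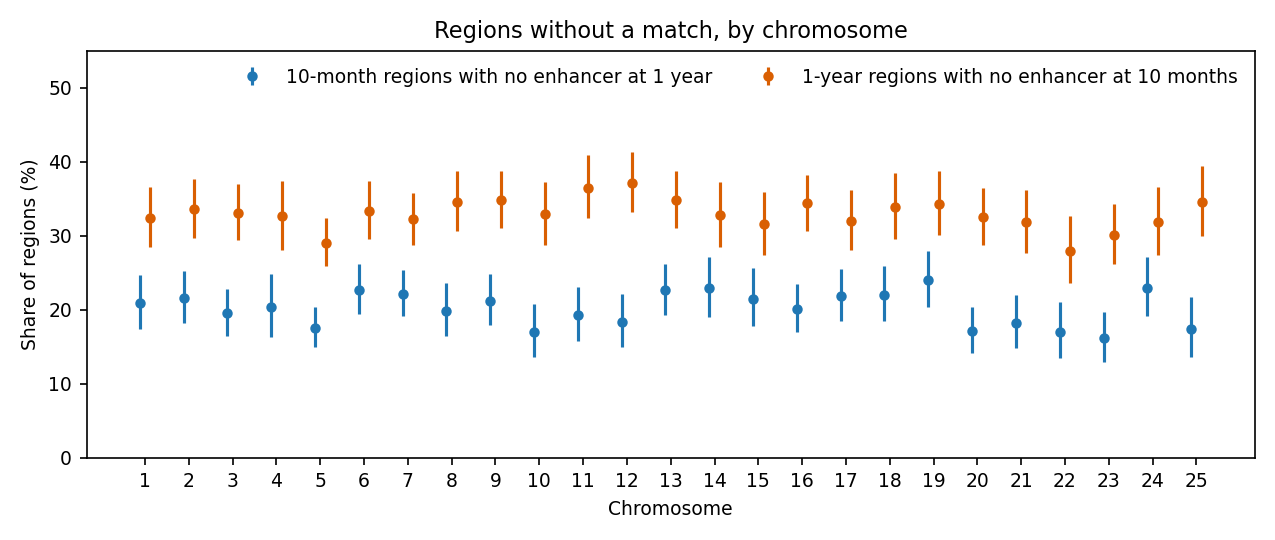
Share of typical enhancers with no enhancer at the other age (percent) on each of the 25 chromosomes, for the 10-month list (blue) and the 1-year list (orange); bars are exact 95% intervals. The 1-year points, 28.0% to 37.2%, lie above the 10-month points, 16.1% to 24.0%, on every chromosome.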

How the data were processed

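The authors deposited a typical-enhancer and a super-enhancer list for each organ and age, in Zv9 coordinates, with a signal per region, per the file headers. The submitters' processing notes name SICER 1.1, bedtools 2.24.0, Bowtie2 2.1.0, CASAVA and SAMtools 0.1.8. For these tools no role is stated, nor is it stated how loci were joined, super-enhancers set apart, input used or replicates pooled. The deposited signal is a total over the region with no stated scaling, and it was used only within 1 list. A 10-month region was taken to have its own signal where 10000 times the signal divided evenly by the length. A signal carried over from another region of equal length would pass as well. Printed positions count from 1.

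Linked matches defined 1-to-1, joined and split regions. Presence in another organ was an overlap of 50% of the shorter region with any enhancer there. Under an alternative overlap rule, presence in the intestine followed that rule too. Lengths with at least 100 single-locus regions, leaving out names of unjoined regions, entered the groups by strength, and medians at each length needed 20 regions on each side. Named regions are the longest lost, gained and super-enhancer cases, the gained regions of highest signal per bp, the pairs with most loci, the joins and splits with most parts, the longest identical pairs and the extreme length ratios. The members and rules were chosen with earlier results of these data known, and the comparisons by strength, distance and run were added after seeing the data. The sorting into 1-to-1, joined, split and lost regions was tested on a list simulated from the 10-month regions, without super-enhancers. The other steps were not tested in this way. Alternatives were other overlap rules, a minimum length, 10-month regions with their own signal, chromosome 4 left out, super-enhancers ignored and neighbours merged. Python 3.11.15, numpy 2.4.6, pandas 2.3.3, scipy 1.17.1 and matplotlib 3.10.9 were used.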

Additional observations from a re-analysis of the deposited data

How the results depend on the processing

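Of 63 values recomputed for 9 results under 7 alternatives, 37 stayed within their limits and 26 moved. A reversal was looked for only in the median length ratio of pairs matched 1 to 1, and that ratio did not reverse. The limits were the interval of a share, 1.5 times a count, or 1 standard deviation of the values behind a median. That last limit is wide, and every recomputed median stayed within it. The median length of lost regions, for example, was 2.20 kb as reported and 3.20 kb for regions of at least 2000 bp. The lost and gained shares, 20.2% and 33.0%, became 18.2% and 31.1% with any overlap, 66.4% and 67.0% with 50% of both regions, 23.2% and 42.5% for regions of at least 2000 bp, and 29.0% and 35.8% with super-enhancers ignored. With 50% of both regions there were 4291 pairs matched 1 to 1, 0 joined and 0 split regions, since a region can then hardly match more than 1 other. For regions of at least 2000 bp the counts were 4326, 806 and 70, and for 10-month regions with their own signal 2089, 141 and 48, both with fewer regions to match. With those own-signal regions alone the gained share was 79.97%, by construction. Merging neighbours within 12.6 kb, chosen after seeing the data, left 58 splits. The share in the intestine was 14.0% of lost and 21.5% of gained regions with 50% of both regions, a rule applied to the intestine match as well. It was 36.6% and 54.9% from 2000 bp, and 42.7% and 46.6% with super-enhancers ignored. With own-signal regions it was 24.3% of lost and 62.3% of gained regions. Gained stayed above lost in the overall share and in the intestine share under each alternative. With 50% of both regions, however, the overall shares were nearly equal, 66.4% and 67.0%. With own-signal regions the order of the overall shares followed from leaving out most of the 10-month list. The gained regions then included many that were matched in the full list, so the order of the intestine shares is no separate support either. Leaving out chromosome 4 changed no call.

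No paired analysis was possible because the hearts share only replicate number 1 and the lists carry no replicate. For the same reason no replicate was left out. With 1 library at 10 months and no read counts, absence from a list cannot be told apart from signal below the calling threshold.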

Other observations

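Single regions and stretches outside the naming rule, picked after their values were seen, are given as values. The 10-month typical enhancer on chromosome 17 from 53841201 to 53842799, 1.60 kb, had a deposited signal of 48098, or 30.1 per bp. This was the highest value among 10-month typical enhancers whose signal belonged to their length. The region held 2 loci and was listed as typical, though its signal lay above 7045, the lowest of the 10-month super-enhancers. Whether the value is an artefact was not tested. The region was lost at 1 year and also listed in the testis. The next highest at 10 months with a signal that belonged to its length lay on chromosome 24 from 12342401 to 12342599, a region of 0.199 kb with 3.51 per bp, lost at 1 year and in no other organ.

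Gained and lost regions also lay in runs. No other 1-year enhancer, typical or super, lay between 12 gained regions on chromosome 9, from 39743601 to 40733399, which summed to 69.6 kb, with 3 of the 12 in the intestine list. A run of 10 gained regions lay on chromosome 13 from 46676601 to 47117999, with 85.0 kb in sum and 5 of 10 in the intestine list. The longest run of lost regions held 7, on chromosome 18 from 31103601 to 32395399, with 33.2 kb in sum, 1 of them in the intestine and none in brain or testis. In all, 56.2% of lost and 43.6% of gained regions had no neighbour of their own class. Lost regions made up 20.2% of the 10-month typical list and gained regions 33% of the 1-year list. Some neighbours of like class are therefore found even in random order, and whether the runs exceed this was not tested.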
